A study of Mus musculus with 931 samples.

Results

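The cells described here are 88 single pancreatic β cells of mice at postnatal day 3 (P3), of 917 single cells with counts in the study. They are all the P3 cells labelled Ins1-RFP+, and 0 of the P3 labels names a second hormone. Ins1-RFP mice carry a red fluorescent reporter named for the insulin 1 gene, so the cells were isolated by fluorescence from a gene that is itself among those measured. The labels' protocols give a mixed C57BL/6 and C3H background for these mice, and the labels name no treatment. The P3 cells fall into 5 batches: batches 1, 2 and 5 (17, 20 and 11 cells) were collected by fluorescence-activated cell sorting (FACS), and batches 3 and 4 (23 and 17 cells) were picked by hand. The strain entry is filled in for batches 1 and 2, and the other batches carry the same reporter in their cell type entry. Each cell was made into a Smart-seq2 library, a full-length cDNA method that amplifies RNA from a single cell and here carries no molecular identifiers. The comparison groups were 71 Ins1-RFP+ β cells at P0 in 3 batches (33 and 29 FACS-sorted cells and 9 picked cells) and 65 at P9 in 3 batches (23 picked, 23 FACS-sorted and 19 picked cells), from the same reporter mice. Glucagon-producing α cells at P0 (46 cells) and P9 (45 cells) served to show the level of β cell genes in another islet cell. They came from Gcg-Cre, Rosa-RFP mice of mixed C57BL/6, CBA/J and C3H background, in which Cre under the glucagon gene switches on the reporter and so also marks cells that made glucagon earlier. No α cells at P3 were analysed here. Bulk libraries of sorted Ins1-RFP+ cells at P3 (2 libraries of pooled cells) gave a second measurement of the same stage.

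β cells make insulin, store it in dense-core granules and release it when blood glucose rises. In newborn rodents they still divide and respond poorly to glucose, and over the following weeks they gain the hormone Ucn3 and lose several genes of the fetal islet, among them the peptide Npy. Insulin itself is transcribed under factors such as Pdx1, Neurod1 and Mafa, which bind short motifs just upstream of the insulin genes.

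The genes that mark these cells are Ins1, Ins2 and Ucn3. The 250 bases upstream of the RefSeq transcription start (GRCm38.p6) are shown for Ins1, on which the reporter is named, for Iapp, the granule peptide that followed the insulins in level, and for Ucn3, the marker that differed most between cells. They are printed 5′ to 3′ on the strand of the gene, and no entry for Ins2 was matched. Capitals mark CATCTG (or CAGATG on the other strand), an E-box of the kind bound by Neurod1 dimers, and TAAT (or ATTA), the core bound by homeodomain factors such as Pdx1. Where ATTA and TAAT overlap in the Iapp window they were counted separately. The Ins1 window lies at chr19:52264047-52264296 on the + strand, the Iapp window at chr6:142298175-142298424 on the + strand, and the Ucn3 window at chr13:3945350-3945599 on the - strand.
Ins1: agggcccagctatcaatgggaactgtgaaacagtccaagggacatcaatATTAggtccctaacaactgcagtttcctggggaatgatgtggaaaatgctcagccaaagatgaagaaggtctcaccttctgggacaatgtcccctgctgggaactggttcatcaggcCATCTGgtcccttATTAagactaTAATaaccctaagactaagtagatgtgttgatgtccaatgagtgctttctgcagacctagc
Iapp: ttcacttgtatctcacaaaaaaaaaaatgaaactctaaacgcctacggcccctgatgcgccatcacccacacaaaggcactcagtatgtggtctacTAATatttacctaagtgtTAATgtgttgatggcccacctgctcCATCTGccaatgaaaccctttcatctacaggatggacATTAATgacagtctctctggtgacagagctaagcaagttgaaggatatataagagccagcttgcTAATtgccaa
Ucn3: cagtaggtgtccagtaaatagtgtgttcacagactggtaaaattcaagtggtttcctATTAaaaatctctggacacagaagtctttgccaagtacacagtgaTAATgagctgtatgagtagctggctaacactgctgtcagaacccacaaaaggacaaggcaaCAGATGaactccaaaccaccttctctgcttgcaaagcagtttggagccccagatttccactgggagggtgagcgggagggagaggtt
The E-box matched 1 time in each of the 3 windows, and such a match was present in 14.5% of 27025 windows of this length, 1 for each gene. TAAT or ATTA matched 3 times in Ins1, 5 times in Iapp and 2 times in Ucn3, and at least 1 match was present in 55.3% of all windows. A match describes these letters and not a bound site.

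The P3 cells had 0.521 to 1.76 M gene reads each (median 1.04 M, with M for mega), and reads of the ERCC spike-in RNAs added to each cell were 0.748% to 3.99% of the total. A median of 7760 genes had at least 1 read, with a range of 6236 to 10694. The batch medians of that number were 7911, 7973, 7527, 7755 and 7584 in batches 1 to 5. Across the 88 cells, 20579 genes had a read somewhere, 1003 had one in every cell and 7672 in at least 50% of cells. The columns of no 2 P3 cells were identical (0 pairs). All p-values below treat a batch as the replicate. The labels name no animal or litter, so these p-values measure the spread between batches, which may be technical. Sex-linked reads also differed between the batches. Every cell of batches 1, 2 and 3 (17, 20 and 23 cells) had more reads of Y-linked genes than of Xist. Batch 4 held 12 cells with more Xist and 5 with more Y-linked reads, and batch 5 held 4 and 7. In batch 3, 1 cell had 27640 CPM (reads scaled to a common total of gene reads) from red blood cell genes, while the next highest cell of the 88 had 22.1.

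The labelled identity was checked against its markers. Ins2 and Ins1 had reads in 88 of 88 cells and Ucn3 in 85 of 88. Levels that compare genes are given as TPM, which divides reads by gene length as well as by the cell's total. Ins2 stood at 415800, 379100, 486600, 424300 and 434900 TPM in batches 1 to 5, and Ins1 at 151300, 157700, 170600, 171400 and 155600. Means were 428100 ± 38850 TPM for Ins2 and 161300 ± 9131 for Ins1 (SD, n = 5 batches), so the pair made up 58.9% ± 4.44 of all TPM and 36.4% ± 3.97 of all gene reads (SD, n = 5 batches). Batch 3 held the highest Ins2 level and the highest summed share of reads, 42.5%, against 31.9% to 37.2% in the other batches. The insulin genes are close copies of each other, and how the authors assigned reads shared by both is not given in the sources used here.

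**Figure D1:**
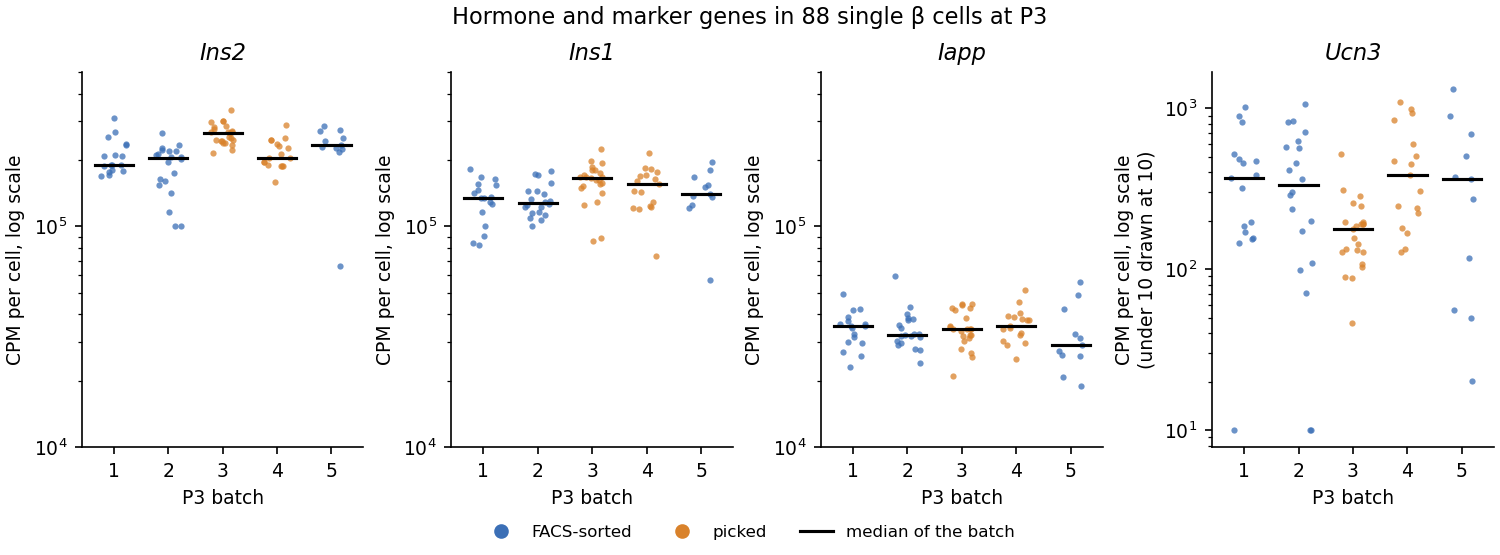
Level of Ins2, Ins1, Iapp and Ucn3 (CPM, log axis) in each of the 88 P3 β cells by batch. Each point is a cell, blue for FACS-sorted and orange for picked batches, and the black line is the batch median; Ucn3 values under 10 CPM are drawn at 10. The insulins and Iapp form narrower bands than Ucn3, and 1 cell of batch 5 has both the lowest Ins1 and the lowest Ins2. Ucn3 spreads from 0 to 1312 CPM, with the lowest median (176.9 CPM) in batch 3.

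The plot of marker levels by cell shows narrower ranges for the insulins and Iapp than for Ucn3. Per cell, Ins1 ranged from 57050 to 223700 CPM (median 144400) and Ins2 from 65840 to 337400 (median 224500). Both lowest values came from the same cell of batch 5. That cell also had the highest Rbp4 (2536 CPM), Cd24a (1309 CPM) and H3f3a (223.2 CPM) of the 88 cells, and an ERCC share of 3.54%. Iapp, amyloid polypeptide, which is released with insulin, ranged from 18870 to 59410 CPM (median 34120). The 5 highest cells held 8.08% of the summed Ins1 level and 7.92% of that of Ins2. Ucn3, urocortin 3, a peptide of the mature β cell granule, ranged from 0 to 1312 CPM (median 247.8). Its batch medians were 370.0, 334.0, 176.9, 386.4 and 360.6 CPM. The 3 cells with no Ucn3 read were in batch 1 (1 cell) and batch 2 (2 cells), and no cell of batch 3 passed 521.7 CPM, whereas the highest cell of each other batch had 1023 to 1312 CPM. With every cell thinned to 400000 reads, Ucn3 was detected in 96.6% of P3 β cells, 71.8% of P0 β cells and 100% of P9 β cells, and in 0 of 46 P0 α cells and 0 of 45 P9 α cells, which allows shares of up to 6.52% and 6.67%. These limits cover counting error only. Insulin reads themselves did not separate the cell types by presence: at the same depth Ins2 was detected in 82.6% of P0 and 48.9% of P9 α cells.

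After the insulins, Iapp was the next highest row, at 47000 ± 2684 TPM (SD, n = 5 batches). The row named Yam1 followed at 42760 ± 10480 TPM, or 6.73% ± 1.49 of gene reads (SD, n = 5 batches). It lies at chr17:39846958-39848788 (GRCm38), where the GENCODE M21 annotation names it Gm42418 and places it over a ribosomal RNA gene, CT010467.1. A further 5 rows, RP23-8J15.1, RP23-8J15.3, RP23-8J15.4, RP23-8J15.2 and RP23-8J15.7, are unprocessed pseudogenes at chr1:24611535-24616197 and ran from 7552 TPM down to 1987. No row of the table carries a mitochondrial name (0 rows). The remaining places held the secretory granule proteins Chga, Scg2 and Cpe, and also G6pc2, Pyy and the actin gene Actb. Chga (chromogranin A) stood at 5748 ± 534 TPM, Scg2 (secretogranin 2) at 2104 ± 273, Cpe (the carboxypeptidase that trims prohormones) at 1564 ± 214 and G6pc2, the islet glucose-6-phosphatase subunit, at 1445 ± 277 (SD, n = 5 batches). The peptide hormone Pyy also ranked there, at 1057, 1496, 780.3, 1852 and 1061 TPM in batches 1 to 5. The 15 leading genes held 71.8% ± 3.12 of all TPM (SD, n = 5 batches), and the 332 ribosomal protein rows together held 1.03%.

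Of 19 genes for glucose sensing, insulin processing and release, 18 had a read in at least 50% of the P3 cells. The zinc transporter of the insulin granule, Slc30a8, stood at 635.2 ± 74.6 TPM, and the proinsulin convertases Pcsk2 and Pcsk1 at 433.5 ± 29.3 and 330.2 ± 39.0 (SD, n = 5 batches). The glucose transporter Slc2a2 was at 184.5, 179.7, 207.0, 183.9 and 259.6 TPM in batches 1 to 5 and the incretin receptor Glp1r at 188.0, 192.3, 115.3, 146.9 and 103.6. Both had reads in all 88 cells. Thinned to equal depth, Slc2a2 was seen in 4.35% of P0 and 6.67% of P9 α cells, Glp1r in 2.17% and 0%, Pcsk1 in 21.7% and 20.0%, and the granule-docking protein Sytl4 in 0% and 2.22%, while each was seen in 100% of P3 β cells. The pore subunit of the ATP-sensitive potassium channel, Kcnj11, stood at 11.5 ± 2.31 TPM and was detected in 59.1% of P3 cells after thinning, where its partner Abcc8, at 144.9 ± 28.0 TPM, was detected in 100%. The remaining low member was Slc6a17, a vesicular amino acid transporter, with reads in 32 of 88 cells.

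Among 20 islet transcription factors, 15 had reads in at least 50% of cells. The glucose-responsive factor Mlxipl was highest at 155.5 ± 28.9 TPM, followed by Neurod1 at 121.2 ± 20.2 and Pax6 at 74.0 ± 8.58 (SD, n = 5 batches). Pdx1, a master regulator of β cell identity, stood at 77.3, 66.1, 43.0, 65.0 and 67.5 TPM in batches 1 to 5 and was present in all 88 cells. Pdx1 was detected in 100% of thinned P3 β cells against 17.4% of P0 and 13.3% of P9 α cells. Nkx6-1, which represses α cell genes, was present in 88 cells at 36.1 ± 11.6 TPM. Mafa, the insulin activator of mature β cells, had reads in 25 of 88 cells and in 0 cells reached 10 reads, which allows a share of up to 3.41%. Its level was 0.767 ± 0.585 TPM, and after thinning it was detected in 20.5% of P3 β cells, 9.86% of P0 and 30.8% of P9 β cells, and 0% of α cells of either stage. Both bulk libraries held more of it, 51.9 and 191.3 CPM, against a mean of 0.705 CPM in the single cells. Irx2, an α cell factor, had reads in 0 of 88 P3 cells, where thinned α cells showed it in 89.1% (P0) and 93.3% (P9).

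Genes of the immature endocrine cell were unevenly spread. Of 19 such genes, 8 had reads in at least 50% of the cells and Pax4, a factor of endocrine progenitors, had reads in 0. The granule protein Chgb was in every cell, at 931.6 ± 207 TPM. Rbp4 (retinol-binding protein) was in 72 cells, Npy in 32, the serotonergic factor Fev in 41 and Igf2bp1, a fetal RNA-binding protein, in 27. Their thinned detection at P0, P3 and P9 was 94.4%, 79.5% and 60.0% for Rbp4, 56.3%, 30.7% and 15.4% for Npy, 74.6%, 43.2% and 12.3% for Fev, and 73.2%, 26.1% and 6.15% for Igf2bp1. Over the whole list, 14 of 19 genes had shares that were highest at P0, intermediate at P3 and lowest at P9, 0 had the opposite order, 1 had the same share at each stage and 4 had another order. Pyy, the highest member by TPM, was among those 4, with 60.6%, 80.7% and 69.2%. These are shares of cells over batches of unequal size, and no test was made of them. How many of all genes fell in share from P0 through P3 to P9 was not computed, so the count of 14 has no background. The number of genes detected per thinned cell was 7199 at P0, 7106 at P3 and 6812 at P9 (means of batch medians). Neurog3, the endocrine progenitor factor, had reads in 2 of 88 cells.

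Genes that β cells are known to keep silent were scarce. Of 20 such genes, 2 had reads in at least 50% of cells and 5 had none. Oat, ornithine aminotransferase, was the highest of the 20, at 47.8 ± 18.1 TPM, with reads in 77 of 88 cells. Ldha, lactate dehydrogenase A, stood at 0.265 ± 0.314 TPM and had reads in 20 cells. The hexokinase Hk1 and the lactate transporter Slc16a1 had reads in 0 cells and Hk2 in 4.

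Glucagon, somatostatin and ghrelin were present as traces. Glucagon (Gcg) had reads in 28 of 88 cells and never passed 55.3 CPM, and somatostatin (Sst) in 27 cells, never above 26.0 CPM. By comparison, the cells of the same reporter mice labelled as Gcg+ (2 cells) and Sst+ (12 cells) held 95650 to 179500 CPM of Gcg and 15250 to 79510 CPM of Sst. The traces lay in particular batches: Gcg was found in 12 of 17, 12 of 20 and 4 of 23 cells of batches 1, 2 and 3, and in 0 of 17 and 0 of 11 of batches 4 and 5, which allows up to 17.6% and 27.3%. Sst followed with 12, 13 and 2 cells in batches 1 to 3 and 0 in batches 4 and 5. What set these batches apart was not tested. Pancreatic polypeptide (Ppy) differed in kind. It had reads in 55 cells and reached 1602 CPM in a cell of batch 3, below the 3522 to 10260 CPM of the 2 cells labelled Ppy+. Ghrelin (Ghrl) had reads in 3 cells, with a maximum of 76.5 CPM.

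Marker lists of other tissues differed in how much signal the cells held. The summed level of 18 acinar genes had a median of 0 and a maximum of 174.1 CPM over the P3 cells, against 25850 and 33020 CPM in the 2 bulk libraries, and 6 of the 18 had no read in any cell. The medians and maxima were 0 and 49.1 CPM for 8 mesenchymal genes, 1.03 and 105.3 CPM for 7 endothelial genes, and 30.2 and 200.1 CPM for 8 immune genes. Of the last, C1qa carried most of the signal, with reads in 67 of 88 cells, and it was also detected in 82.6% of P0 α cells after thinning. Duct genes were present in the cells, with a median sum of 960.8 CPM (maximum 5703) against 1067 and 1324 CPM in bulk. Of 10 duct genes, 6 were in at least 50% of the cells, led by Epcam, Krt8 and Krt7 at 155.0, 144.0 and 73.5 TPM, which the P0 α cells also held in 100% of cells. Without the 1 cell of batch 3 named above, the highest sum of the 7 red blood cell genes was 22.1 CPM. Bulk libraries mix cells, so fewer cells of a type and less RNA per cell cannot be told apart in them. Sums of Ins1, Ins2 and Ucn3 were 364600 ± 38850 CPM in the single cells (SD, n = 5 batches) and 109100 and 111400 CPM in bulk, which were made with a different chemistry.

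Most genes of secretion and folding were detected in most cells. All 30 granule and exocytosis genes had reads, 26 of them in at least 50% of cells, and their sum was 24710 ± 1098 CPM (SD, n = 5 batches). In the endoplasmic reticulum list, 24 of 25 genes were in at least 50% of cells, led by the chaperone Hspa5 at 1262, 1063, 806.9, 1222 and 751.2 TPM in batches 1 to 5. Hspa5 ran from 292.1 to 6164 CPM between cells. The iron-storage protein Fth1 stood at 763.5 ± 69.4 TPM and the glycolytic enzyme Pkm at 332.5 ± 50.4. Immediate early genes, which respond within minutes to stimulation or tissue handling, differed by batch. Fos stood at 740.1, 804.7, 322.1, 140.2 and 229.6 TPM in batches 1 to 5, highest in batches 1 and 2. The list's sum was 2933 ± 1384 CPM over batches (SD, n = 5) and 12070 and 12130 CPM in bulk.

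Which genes differed most from cell to cell was asked within each batch, so that differences between batches did not enter. For each of 5527 genes with at least 20 CPM, the squared coefficient of variation (CV², variance over squared mean) was set against the median of the 101 genes closest in mean level, and the log2 of that ratio was taken as the excess. The excess was above 0 in all 5 batches for 672 genes, and CV² was over 2 times the local median in all 5 batches for 57. Set against the ERCC spike-ins, which carry technical variation only, 1292 genes (23.4%) were above the spike-in line in all 5 batches and 294 in none. These are descriptions, with no test.

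**Figure D2:**
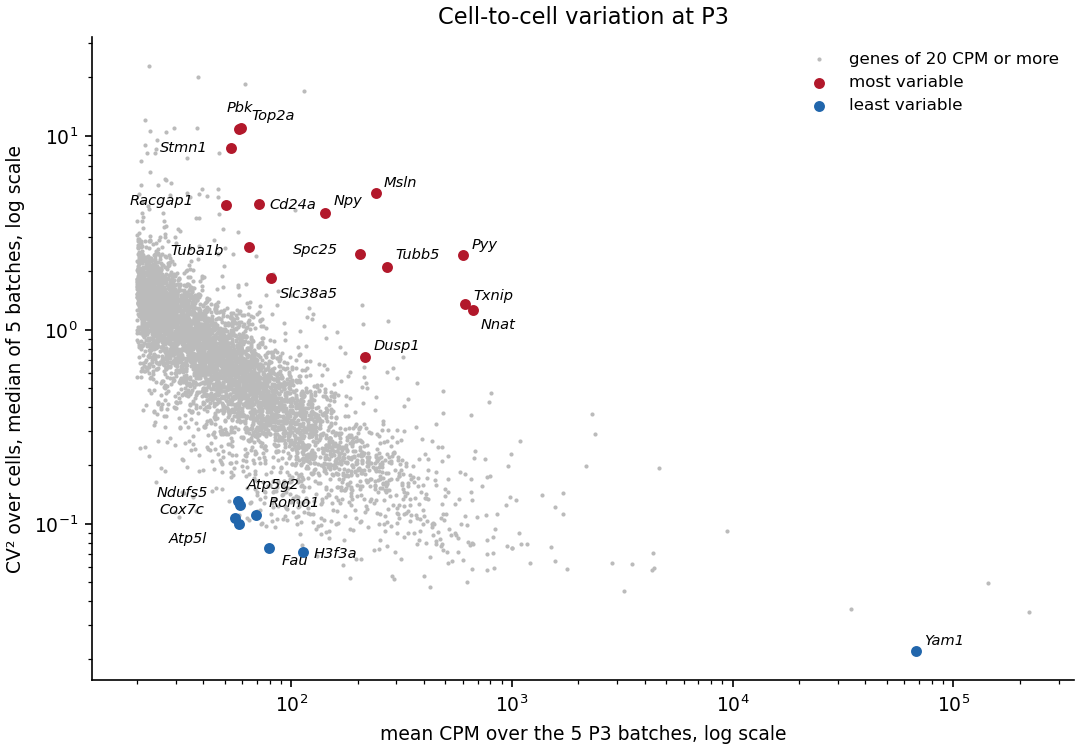
CV² within batches against mean level (CPM, both axes log) for genes of at least 20 CPM in the P3 β cells. Each grey point is a gene; red points are the named genes of highest and blue points those of lowest excess variation. Msln and Pyy lie far above genes of like level, and the blue points, mostly parts of the respiratory chain and ribosome, lie at the lower edge.

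Msln had the highest excess, with a median of 4.85 and values from 4.58 to 5.14 over the batches. It encodes mesothelin, a cell-surface protein known from mesothelium. Msln was at 0 in 51 of 88 cells and at 1000 CPM or more in 11, at least 1 in each batch (2, 2, 4, 1 and 2), with a maximum of 2639 CPM. Pyy, peptide YY, an islet and gut hormone of the pancreatic polypeptide family, had an excess of 3.90 to 5.56. Its cells ran from 0 (9 cells) to 5605 CPM, with 18 cells at 1000 CPM or more, again in every batch (4, 4, 3, 5 and 2). Npy, of the same peptide family, was at 0 in 56 cells and at 100 CPM or more in 19, with a maximum of 2077 CPM. Both peptides thus had cells under 10 CPM and cells of 100 CPM or more in every batch.

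**Figure D3:**
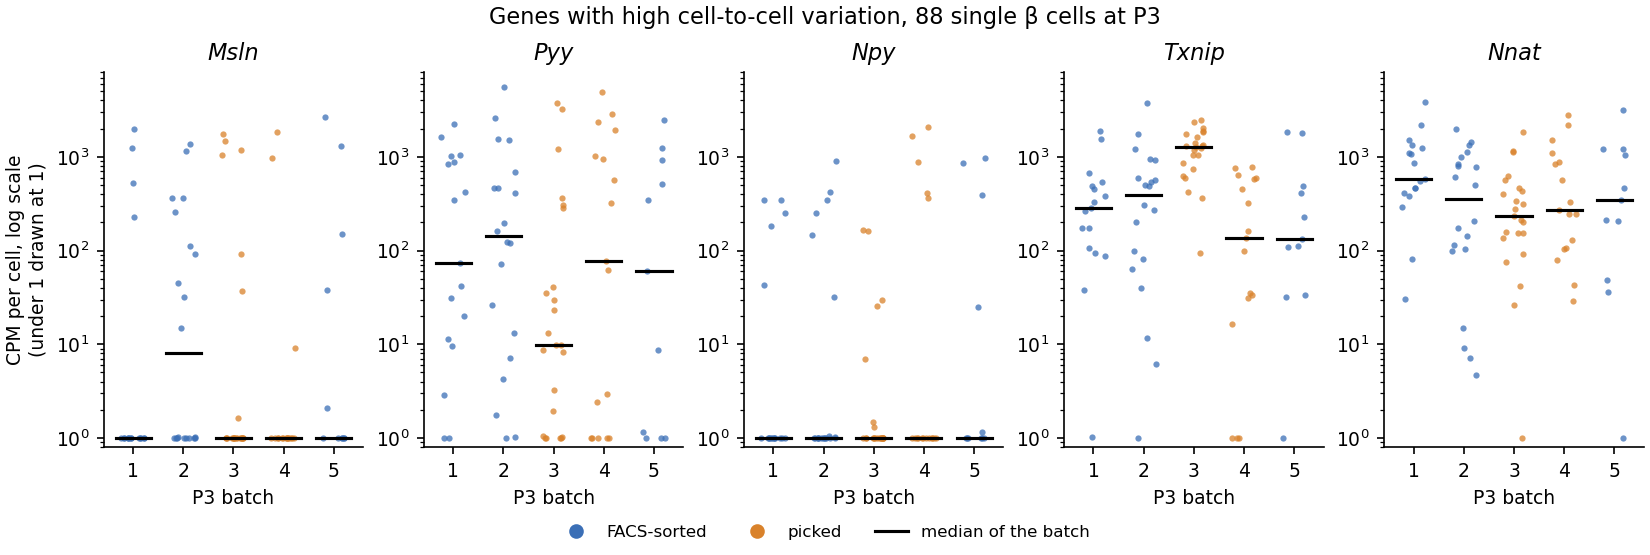
Level (CPM, log axis) of Msln, Pyy, Npy, Txnip and Nnat in each P3 β cell by batch, blue for FACS-sorted and orange for picked batches; values under 1 CPM are drawn at 1. Msln and Pyy show cells near the floor and cells at 1000 CPM or more within every batch, Npy cells at the floor and cells over 100 CPM, and Txnip is highest in batch 3.

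Txnip, a thioredoxin inhibitor induced by glucose, had batch medians of 288.0, 394.6, 1266, 135.7 and 132.0 CPM, and 16 of the 23 cells at 1000 CPM or more were in batch 3. Batch 3 was thus far above the rest for this gene. Nnat, neuronatin, an imprinted protein of the endoplasmic reticulum that aids insulin processing, had an even excess of 3.26 to 3.75 and ran from 0 to 3884 CPM. Cd24a, a surface glycoprotein of immature epithelium, was at 0 in 40 cells and reached 1309 CPM. Spc25, a kinetochore protein, had a median of 111.5 CPM, with 5 cells at 0, while Top2a was at 0 in 61 cells and Racgap1 in 0. Its gene lies at chr2:69193895-69206194 (GRCm38), 4878 bases from G6pc2 on the opposite strand, and whether reads were assigned by strand is not given in the sources used here. Within batches, Spc25 and G6pc2 had a median Spearman correlation of 0.13 (range -0.07 to 0.39 over 5 batches). The rest of the 15 most variable genes were led by cell division genes, among them Top2a, Pbk, Stmn1, Racgap1 and the tubulins Tubb5 and Tuba1b, next to the amino acid transporter Slc38a5 and the phosphatase Dusp1.

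At the other end, the genes of lowest excess were Atp5l, Cox7c, Fau, Atp5g2, Yam1, Romo1, H3f3a and Ndufs5. Atp5l, Atp5g2, Cox7c and Ndufs5 are parts of the respiratory chain or ATP synthase. Fau had an excess of -2.51 and ran from 27.4 to 148.8 CPM, and H3f3a, a replacement histone, from 52.8 to 223.2 CPM. All except Yam1 stayed below the spike-in line in every batch. Yam1 was above it in 4 of 5.

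Cells with many cell cycle transcripts were a minority. The study used Pbk, Foxm1 and Cdk1 to recognise proliferating cells, and 9 of 88 P3 cells (10.2%, exact Clopper-Pearson 95% interval 4.78% to 18.5%) had at least 10 reads of 2 or more of them. By batch these were 1, 2, 2, 3 and 1 cells, so each batch held at least 1. The interval counts each cell as independent and covers counting error only. It leaves out the spread between batches, whose shares ran from 5.88% to 17.65%. Those 9 cells had at least 10 reads of 30 to 44 of a list of 45 cell cycle genes (median 42), and the other 79 cells had 1 to 19 (median 4), with no overlap; the 3 genes that chose the cells are in the list, and the split is a description. Of the other 79 cells, 14 had 10 to 19 of the list genes, between the 9 cells and the rest. The list's summed level was 5171 to 11820 CPM in the 9 cells and 21.4 to 1665 CPM in the others. The median number of genes detected, after thinning, was 8167 in the 9 cells and 7073 in the others, and median ERCC shares were 1.22% and 1.92%. Hormone medians were 133700 and 146900 CPM for Ins1, 202300 and 225700 for Ins2, and 320.8 and 240.9 for Ucn3 in the 9 and the other 79 cells. By the same rule, 9 of 71 P0 cells (12.7%) and 5 of 65 P9 cells (7.69%) qualified. In the batches that the study enriched for proliferating cells, 6 of 9 P0 cells (66.7%) and 6 of 12 P9 cells (50.0%) did.

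**Figure D4:**
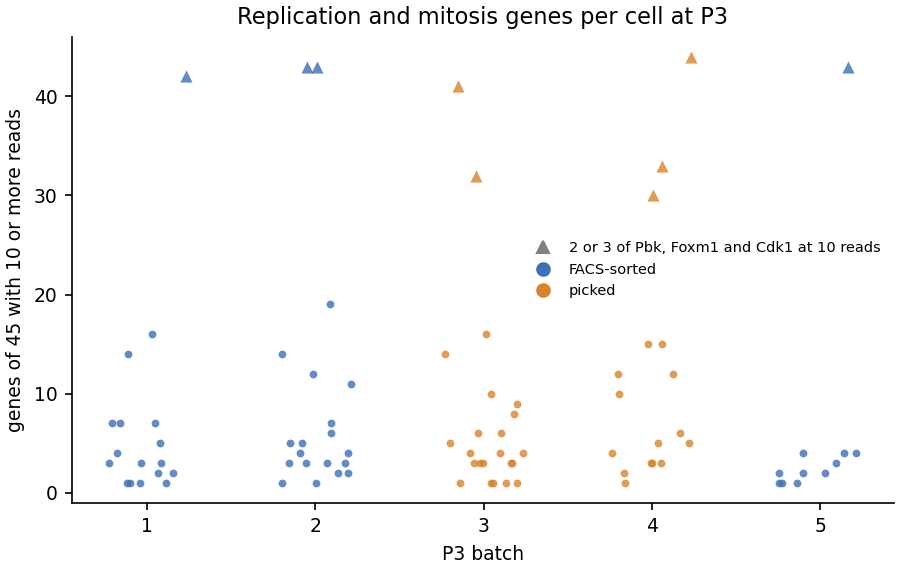
Number of 45 cell cycle genes with at least 10 reads in each P3 β cell, by batch. Triangles are the cells with 10 reads of 2 or 3 of Pbk, Foxm1 and Cdk1 and circles the others. The 9 triangles sit at 30 to 44 genes and the circles at 1 to 19.

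Pairs of genes were followed across cells within each batch by Spearman correlation, which is given as a description because cells of a batch share library preparation and depth (11 to 23 cells a batch). Ins1 and Ins2 were not positively related (median -0.10, range -0.48 to 0.01). Both are large parts of the total that CPM is scaled by, so more reads of either gene lower the CPM of the other. This correlation therefore cannot show whether the insulin genes vary together. Pyy and Npy were negatively related in each batch (median -0.38, range -0.58 to -0.08), and Pyy was positively related to Rbp4 (0.41, range 0.20 to 0.82). Txnip, in turn, went with Rbp4 (0.61, range 0.27 to 0.89) and Cd24a (0.53). The chaperones Hspa5 and Hsp90b1 followed each other in 4 batches (median 0.66), with -0.03 in batch 5. The stimulus genes Fos and Egr1 did so in 4 batches (median 0.72), with -0.15 in batch 4. The genes most like Ucn3, by median correlation with the same sign in all 5 batches among 5520 genes, were Arl8b (0.63), which moves lysosomes and granules, Uap1l1 (0.52), the pseudogene row RP23-8J15.3 (0.50), Smndc1 (0.49) and the mitochondrial pyruvate carrier Mpc1 (0.49). Those most opposed were Wipi1 (-0.48), Srp54b (-0.46), Nav2 (-0.43), Sec61a1 (-0.42) and Kmt2c (-0.41). In the batch nearest 0, the first 5 genes had 0.05, 0.31, 0.005, 0.05 and 0.02. The 5 opposed genes had -0.01, -0.13, -0.02, -0.05 and -0.007. Over all 5520 genes, 262 were positive and 159 negative in every batch. The 5th and 95th percentiles of the median correlation with Ucn3 were -0.23 and 0.26. In a principal component analysis, the first component held 6.29% of the variance, had cell division genes such as Mcm3, Top2a and Mcm6 at its high end, and correlated with the number of genes detected (Spearman 0.84 over 88 cells). The second (3.31%) ran from Pyy, Rbp4 and Cd24a to Npy, Spc25 and Prlr. The third (3.11%) had Txnip at its low end, and 42.4% of its spread lay between batches.

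The P3 cells were then placed between P0 and P9, after the cells of each batch were added up, by edgeR's quasi-likelihood test, which allowed for the collection method. Of 16107 genes tested between P0 and P3, 54 were called at an adjusted p under 0.05 (0.335%), 35 higher at P3 (0.217%) and 19 lower (0.118%). Levels in this comparison are CPM scaled by edgeR's TMM factors. Ucn3 stood at 49.5, 97.2 and 41.4 CPM in the P0 batches and at 347.7, 340.2, 185.8, 405.1 and 375.5 CPM in the P3 batches. Every P3 batch was above every P0 batch, and Ucn3 rose by 2.46 ± 0.30 on the log2 scale (SE; adjusted p = 0.000354, edgeR). The incretin receptor Glp1r was at 59.7, 59.7 and 52.5 CPM at P0 and 201.7, 199.7, 153.0, 165.2 and 121.2 at P3. It was higher in every P3 batch, by 1.54 ± 0.28 (log2; adjusted p = 0.0127, edgeR). These were the 2 called of 19 β cell function genes, whose median log2 change was 0.14 against -0.02 over all genes tested.

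Granule genes also gave 2 calls of 30, both higher at P3, with a median of 0.12. Chga was at 5257, 5754 and 3447 CPM at P0 and 8612, 8456, 10660, 7355 and 7855 at P3, a rise of 0.86 ± 0.17 (log2; adjusted p = 0.0243, edgeR). Pcsk1n, the proSAAS peptide that inhibits prohormone convertase, rose by 1.19 ± 0.17 (log2; adjusted p = 0.00296). The largest rises among genes of at least 20 CPM were Mapk10, the neuronal JNK3 kinase, Nap1l5, Sec16b, a protein of endoplasmic reticulum exit sites, Ucn3 and Akr1c14, an aldo-keto reductase. Mapk10 went from 3.88, 4.50 and 0.21 CPM to 27.8, 29.8, 21.3, 49.9 and 54.8, and Akr1c14 from 7.69, 6.01 and 11.5 CPM to 47.7, 34.9, 44.5, 27.5 and 28.4. The log2 rises were 3.81 ± 0.73 for Mapk10 and 2.14 ± 0.33 for Akr1c14 (adjusted p = 0.0188 and 0.00475, edgeR), and P0 and P3 batches did not overlap for either.

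**Figure D5:**
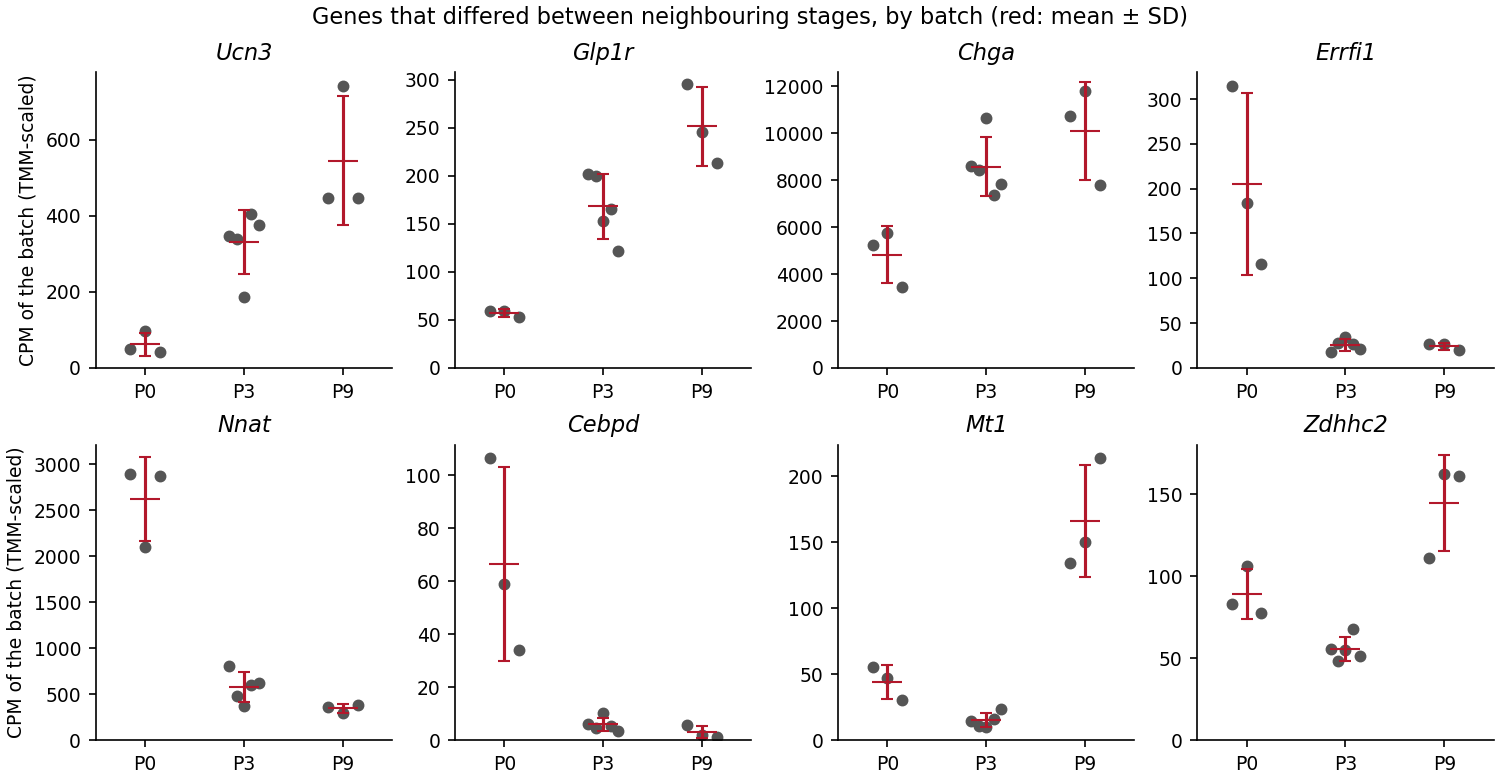
Levels of 8 genes (TMM-scaled CPM, linear axis) in the batches of single β cells at P0 (3 batches), P3 (5) and P9 (3). Points are batches and the red marks give the mean ± SD. Ucn3, Glp1r and Chga lie higher in every P3 than P0 batch, Errfi1, Nnat and Cebpd lower, Mt1 is lowest at P3, and Zdhhc2 is higher in every P9 than P3 batch.

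The largest falls were Cebpd, Errfi1, Marcksl1, Nnat and Klf9. Errfi1, a feedback inhibitor of the epidermal growth factor receptor, went from 315.0, 184.4 and 115.8 CPM at P0 to 17.8, 28.0, 34.8, 27.1 and 21.1 at P3. It fell by 3.04 ± 0.32 on the log2 scale (adjusted p = 4.8e-05, edgeR). Cebpd, a transcription factor induced by stress and glucocorticoid, was at 106.4, 58.9 and 34.1 CPM at P0 and between 3.62 and 10.1 CPM at P3, a log2 change of -3.56 ± 0.61 (adjusted p = 0.00874). Klf9, also a glucocorticoid-responsive factor, changed by -1.79 ± 0.31 (adjusted p = 0.00874). Nnat, which was among the most variable genes between P3 cells, was at 2892, 2097 and 2877 CPM at P0 and 804.4, 485.1, 369.2, 600.1 and 626.6 at P3, a log2 change of -2.17 ± 0.47 (adjusted p = 0.0462). The actin-linked Marcksl1 changed by -2.43 ± 0.53 (adjusted p = 0.0466). The zinc-binding metallothionein Mt1 was the 1 called of 17 metallothionein and antioxidant genes, from 55.3, 47.5 and 30.2 CPM at P0 to 14.7, 11.0, 9.99, 16.2 and 23.4 at P3 (log2 -1.52 ± 0.33, adjusted p = 0.0466). Several genes named in this comparison and the next overlap other annotated genes, whose reads could be counted with theirs if strand was not used. They include Mapk10, Nap1l5, Sec16b, Akr1c14, Glp1r, Pcsk1n, Cebpd, Errfi1, Nnat, Klf9, Pdx1, Zdhhc2 and Iqcg, and also Iapp and Txnip.

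Neither insulin gene and no gene of the immature endocrine list passed this test. Ins2 differed by 0.46 ± 0.17 and Ins1 by 0.30 ± 0.17 on the log2 scale (adjusted p = 0.316 and 0.565, edgeR), with overlapping batches. Pdx1 was at 155.4, 141.9 and 131.0 CPM at P0 and at 171.4 to 248.5 CPM at P3, and Dlk1, an imprinted Notch-related ligand, at 180.1, 202.7 and 170.9 CPM at P0 and 14.6, 16.7, 24.2, 86.6 and 71.4 at P3. The batches of the stages did not overlap for either gene, as for 7.48% of all genes tested, and neither was called (adjusted p = 0.207 and 0.184). Of 19 immature endocrine genes, 0 were called, where 1708 of all genes had an unadjusted p under 0.05. Their median log2 change was -1.75, with 4 above 0, against -0.02 over all genes. Of 25 genes of the endoplasmic reticulum list 22 were above 0 (median 0.26) and of 45 cell cycle genes 10 were (median -0.44), with 0 called in each. The calls depended on particular batches: 21 genes were called without P0 batch 1, 16 without P0 batch 4, 32 without P3 batch 4, and 9 with FACS-sorted batches only. Ucn3, Errfi1, Akr1c14 and Pcsk1n were called whichever single batch was left out, whereas Glp1r, Chga, Mapk10 and Sec16b were lost without P0 batch 1 or without P0 batch 4, and Cebpd and Klf9 without P0 batch 1. Nap1l5 was lost in 4 and Marcksl1, Nnat and Mt1 in 7 of the 8 fits that left out a batch. Ucn3 and Pcsk1n were not called with FACS-sorted batches only, nor Ucn3 and Akr1c14 in a fit of all 45 β and α batches (adjusted p of Ucn3 over alternatives 8.51e-18 to 0.169, edgeR, limma and DESeq2).

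The comparison with P9 used the same P3 batches. Between P3 and P9, 4 of 16107 genes were called (0.0248%), 3 higher at P9 (0.0186%) and 1 lower (0.00621%). Mt1 was at 9.99 to 23.4 CPM in the P3 batches and 134.0, 150.6 and 214.0 CPM in the P9 batches. It rose by 3.59 ± 0.35 on the log2 scale (adjusted p = 9e-06, edgeR), so that P3 held its lowest level of the 3 stages. Zdhhc2, a palmitoyltransferase, was at 55.7, 48.1, 55.0, 67.7 and 51.4 CPM at P3 and 111.1, 162.1 and 161.1 at P9, a rise of 1.39 ± 0.20 (adjusted p = 0.00604). Creg1, a secreted glycoprotein of lysosomes, was at 80.2, 82.2, 74.3, 76.8 and 88.1 CPM at P3 and 145.7, 162.3 and 120.6 at P9, a rise of 0.85 ± 0.14 (adjusted p = 0.0248). The gene called lower at P9 was Iqcg, named here after its values were seen. Its batches at P3 had 0.921, 0.792, 4.62, 3.56 and 1.06 CPM, from 16 of 88 cells with a read, and all 3 P9 batches had 0 (adjusted p = 0.0248, edgeR), so no fold is given. This call was lost in 6 of the 8 fits that left out a batch.

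Ucn3 was higher in all 3 P9 batches (446.5, 741.8 and 446.7 CPM) than in every P3 batch, as was Iapp, a separation found for 5.41% of all genes, and neither passed the test (log2 0.80 ± 0.27, adjusted p = 0.468 for Ucn3, edgeR). Ins2 was at 332700, 363100 and 237600 CPM at P9 and overlapped P3 (log2 0.66 ± 0.17, adjusted p = 0.273). Of the lists, 15 of 19 β cell function genes were above 0 with a median of 0.36, against -0.002 over all genes, and 0 were called. Acinar genes had a median of 3.85, with 15 of 17 tested above 0 and 0 called. Their summed level was 1.46 to 18.3 CPM in the P3 batches, where 9 to 16 of the 18 genes were at 0, and 140.5, 70.4 and 37.9 CPM in the P9 batches, where 2 to 5 were. Their part in the other differences was not tested. Xist was at 118.7, 0.681 and 108.5 CPM in the P0 batches and at 0.388, 0.125, 3.58, 125.4 and 77.2 CPM in the P3 batches. In the P9 batches it was at 0.081, 0.575 and 0.042 CPM. Sex was not a term of the fit, and its part in the stage differences was not tested. At an unadjusted p under 0.05, 1243 genes passed. Mt1 was called whichever batch was left out and was not called with FACS-sorted batches only, where P9 has 1 batch (adjusted p = 0.0843, range over alternatives 1.13e-23 to 0.0843). Zdhhc2 was lost without P9 batch 2 or P9 batch 3 and Creg1 without any of 6 batches, and 2 genes were called without P3 batch 1 or P9 batch 1 and 1 without P9 batch 2.

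Within P3, picked and FACS-sorted batches were compared. Of 18635 genes, 0 were called (0%), 1001 had an unadjusted p under 0.05, and DESeq2 called 57. The 2 picked and 3 sorted batches did not overlap for 17.9% of genes. Of 20 immediate early and heat shock genes, 2 had a log2 difference above 0 (median -1), and of 45 cell cycle genes 42 did (median 0.62), against a median of 0 over all genes. Cell cycle transcripts were concentrated in 9 cells (1, 2, 2, 3 and 1 in batches 1 to 5), so these genes do not count separately. Fos medians overlapped: 1023, 1339 and 327.8 CPM in sorted batches 1, 2 and 5, and 556.3 and 248.7 CPM in picked batches 3 and 4. Egr1 medians did not, at 308, 399.1 and 447.9 CPM in the sorted and 292.6 and 132.7 CPM in the picked batches. Delta cell genes had a median of -2.34, with 1 of 6 above 0, and epsilon cell genes 2.38, with 4 of 4 above 0. The delta gene Sst did not follow the method in every batch. It had reads in 12 of 17 and 13 of 20 cells of sorted batches 1 and 2 and in 0 of 11 of sorted batch 5. In picked batches 3 and 4 it had reads in 2 of 23 and 0 of 17 cells. Leaving out batch 4 gave 6 calls and leaving out batch 5 gave 2.

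Whole-cell summaries of the batches were compared by exact permutation of batch labels (two-sided, 5 against 3 batches, 56 arrangements, smallest possible p 0.0357), with cells thinned to 400000 reads and p-values adjusted over the 8 tests. Ins1 and Ins2 together were 36.4% ± 3.89 of gene reads at P3, 30.8% ± 4.51 at P0 and 45.4% ± 4.29 at P9 (SD, n = 5, 3 and 3 batches). Neither difference passed the exact permutation test (p = 0.143 and 0.0714, adjusted p = 0.381 for both). Genes detected were 7106 ± 253 at P3, 7199 ± 56.6 at P0 and 6812 ± 149 at P9 (exact permutation p = 0.643 and 0.143). Without thinning, the P3 minus P0 difference in genes detected was -319.3 rather than -93 (exact permutation p = 0.0357, adjusted p = 0.286). The share of cells with reads of 2 or more of Pbk, Foxm1 and Cdk1 was 10.3% ± 4.41 at P3, 20.1% ± 21.1 at P0, where the 9 picked cells of batch 4 gave 44.4%, and 7.86% ± 3.17 at P9 (exact permutation p = 0.536 and 0.5). The mean correlation between cells of a batch, a measure of how alike they were, was 0.559 ± 0.032 at P3, 0.562 ± 0.040 at P0 and 0.545 ± 0.019 at P9 (SD over batches; exact permutation p = 0.893 and 0.536). None of the 8 tests passed after adjustment. A difference standing alone could not pass: at the smallest possible exact permutation p, the adjusted p without thinning was still 0.286.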

How the data were processed

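The deposited tables held raw read counts and TPM per gene for each single cell, and raw counts for bulk libraries. The builds GRCm38 and mm10 and the tools DESeq 1.20.0, HTSeq 0.6.0 and TopHat2 2.1.0 are named, per the submitters' processing notes, without their roles. The strand setting is not given in the sources used here. The deposited TPM matched TPM recomputed from the counts to within 0.005. The 92 ERCC rows were kept apart from the 40824 gene rows. CPM was computed from gene reads. Cells were grouped by their labels, and no doublet caller was run because each library is a sorted or picked cell.

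For stage comparisons, reads were summed over the cells of each of 25 β cell batches and tested with edgeR 4.0.16 (R 4.3.3; filterByExpr, TMM, quasi-likelihood, Benjamini-Hochberg adjustment, stage plus collection method); picked and sorted P3 batches were compared in a fit with stage and method as joint groups. Detection was compared after thinning to 400000 reads. Correlations used CPM within batches. Scripts were tested on simulated data. The simulated batch sums varied less between batches than the real ones, whose common dispersion was 0.491. That test therefore does not show how the stage fit performs at the spread found here. Alternatives were limma 3.58.1 on log2(TPM + 1), DESeq2 1.42.0, other filters, depths and batch sets.

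The cells, gene lists and tests were chosen with earlier results of these data known. Named genes were the 5 largest rises and falls among called genes of at least 20 CPM with no overlap between batches, the leading and called genes of each list, the 15 most and 8 least variable genes of at least 50 CPM, the 15 highest by TPM, the genes most correlated with Ucn3, and a fixed set of hormones and factors; predicted, ribosomal protein and spike-in rows were left out, and fewer are described. Positions are from GENCODE M21 (418 of 418 IDs found).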

Additional observations from a re-analysis of the deposited data

Results flagged for a closer look

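Of 67 values compared over the 5 P3 batches, 3 had a batch far from the others by Dixon's 95% criterion, a rate at which chance alone would flag about 1 in 20. Txnip stood at 1291 CPM in P3 batch 3, a picked batch, and the next highest batch had 517 CPM. Ghrl stood at 3.47 CPM in P3 batch 3, where the next batch had 0.174 CPM. That level came from 1 cell with 76.5 CPM. Cd24a stood at 150.4 CPM in P3 batch 5, the batch of 11 sorted cells, against 65.9 CPM in the next, and 1 cell of batch 5 reached 1309 CPM.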

How the results depend on the processing

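The number of genes called between P0 and P3 (54) was 28 in a fit of all 45 β and α batches, 303 with DESeq2, 9 with FACS-sorted batches only, 135 without the low-count filter and 241 with limma on equally weighted cells (46 higher and 195 lower, with a median over all genes of -0.15). It ran from 16 to 54 when single batches were left out. Between P3 and P9 (4 called) the numbers were 1 in the 45-batch fit, 146 with DESeq2 (55 higher and 91 lower), 35 without the filter, 325 with limma (11 higher and 314 lower, median -0.34) and 1 to 6 with single batches left out. Picked against sorted P3 batches (0 called) gave 57 with DESeq2, 1 with limma, 98 without the filter and 0 to 6 with single batches left out. The cause of these differences was not tested. With FACS-sorted batches only, P9 kept 1 batch, which is assumed to vary like the others.

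Batch numbers were shared between stages, so a replicate block on the batch number was fitted to batches with a common number. It called 0 genes between P0 and P3 (1229 at an unadjusted p under 0.05) and 2 between P3 and P9. The same batches without the block, an alternative added after seeing the data, gave 9 and 2. Same-numbered batches correlated at -0.03 to 0.06 in their deviations, and not every batch correlated best with its own number, so the number was not taken as a pairing.

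With FACS-sorted batches only, the P3 minus P0 difference turned to 24.2 for genes detected (from -93) and to 0.331 for the percent of dividing cells (from -9.88). With single batches left out these differences ran from -159 to 8 and from -16.5 to 2.27, and that of the mean correlation between cells from -0.0258 to 0.0104 (reported -0.00298). The 57 genes with over 2-fold variation in every batch became 86 without Ins1 and Ins2, 101 at a minimum of 5 CPM and 60 to 80 with single batches left out. The median of 7760 genes detected became 5834 at 10 reads and 7146 after thinning. Without thinning, the P3 minus P0 difference in genes detected was -319.3 (exact permutation p = 0.0357, adjusted p = 0.286). No per-batch difference passed 0.05 after adjustment in any alternative run. With so few batches a difference standing alone could not have passed, so this does not show that the stages were alike. The depth (median 1.04 M gene reads a cell, no molecular identifiers) limits what the detection shares can show for low genes.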
